A study of Mus musculus with 17 samples.

Results

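Bile acid synthesis and its feedback control were described for 10 genes in 17 liver libraries of male C57BL/6 mice: Cyp7a1, Cyp8b1, Cyp27a1, Cyp7b1, Hsd3b7, Akr1d1, Slc27a5, Baat, Nr1h4 and Nr0b2. They were chosen by gene symbol from the 46073 genes of the deposited expression table, through their Ensembl gene IDs, and not by their measured values. All 10 were found and all 10 passed the filter of a mean of at least 1 FPKM (a level corrected for transcript length and library size), which 11101 genes passed. The study asks, by its title, whether Nampt protects the liver from acetaminophen (APAP), a painkiller that injures hepatocytes around the central vein at high dose. Nampt encodes the enzyme that limits the making of NAD from nicotinamide.

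Livers were taken 24 h after the injection. The groups given APAP at 200 mg/kg hold 3 livers labelled Nampt +/- (Het), 2 labelled Nampt OE (OE) and 3 labelled Nampt +/+ (WT), and the saline groups hold 2 Het, 2 OE and 3 WT livers. A lone OE liver was taken after 300 mg/kg and a lone WT liver after saline labelled IG, and neither enters a comparison. Age was 12 weeks for OE APAP 2, the 300 mg/kg liver and WT saline 1 and 2, and 11 weeks for all others. The sources used here do not give what OE stands for, what drives that allele or in which cells. Perfusion is labelled for 1 of 3 Het APAP, 1 of 2 OE APAP and 0 of 3 WT APAP livers, against 2 of 2 Het saline, 1 of 2 OE saline and 2 of 3 WT saline livers. Replicates are numbered in the order of deposit. Since no label gives an animal for each library, the p-values rest on differences between libraries that may be technical repeats.

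In hepatocytes cholesterol is turned into bile acids by a classical route, which Cyp7a1 opens, and by an alternative route, which Cyp27a1 opens. The products are joined to taurine or glycine before they leave the cell. Bile acids activate the nuclear receptor FXR (Nr1h4), which raises the corepressor SHP (Nr0b2) in the liver and the hormone Fgf15 in the mouse intestine. Both lower Cyp7a1 and Cyp8b1, so the route is best known for its negative feedback. Bile acid enzymes are made mainly by hepatocytes, with Cyp7a1 richest around the central vein.

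The promoters of 3 genes are shown because these genes behaved differently after APAP: Cyp8b1 and Akr1d1 carried large decreases and Nr0b2 moved little. Each is 250 bases before to 50 bases after the gene's start in RefSeq's GRCm38.p6 table, read 5′ to 3′ on the gene's strand, with matches to the motifs named below in capitals. The Cyp8b1 window lies at chr9:121916256-121916555 on the minus strand, that of Akr1d1 at chr6:37529923-37530222 on the plus strand and that of Nr0b2 at chr4:133553126-133553425 on the plus strand.
Cyp8b1: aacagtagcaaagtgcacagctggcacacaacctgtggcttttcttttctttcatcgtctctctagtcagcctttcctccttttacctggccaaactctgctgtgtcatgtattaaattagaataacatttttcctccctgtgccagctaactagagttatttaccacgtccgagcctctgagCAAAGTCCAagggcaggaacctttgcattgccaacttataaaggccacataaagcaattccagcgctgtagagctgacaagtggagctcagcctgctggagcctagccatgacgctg
Akr1d1: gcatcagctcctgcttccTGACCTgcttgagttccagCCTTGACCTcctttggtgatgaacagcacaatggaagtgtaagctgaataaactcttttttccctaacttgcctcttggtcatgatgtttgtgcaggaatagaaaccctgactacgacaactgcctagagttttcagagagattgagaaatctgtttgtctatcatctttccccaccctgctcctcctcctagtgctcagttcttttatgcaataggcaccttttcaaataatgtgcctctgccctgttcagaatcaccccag
Nr0b2: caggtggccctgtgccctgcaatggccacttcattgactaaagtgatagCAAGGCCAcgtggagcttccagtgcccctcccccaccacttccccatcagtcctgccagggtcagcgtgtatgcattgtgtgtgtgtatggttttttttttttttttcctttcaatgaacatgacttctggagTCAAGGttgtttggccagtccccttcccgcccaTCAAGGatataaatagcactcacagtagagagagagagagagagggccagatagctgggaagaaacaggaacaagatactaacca
Entries were found for 6 of the 10 genes, the others being Cyp27a1, Hsd3b7 and Nr1h4. Both strands were searched. The core motif of LRH-1 (Nr5a2), the receptor through which SHP acts on Cyp7a1, was searched as TCAAGG and stood in 2 of the 6 windows, at -68 and -35 from the start in Nr0b2 and at -213 on the opposite strand in Akr1d1. It was present in 14.4% of all 32851 promoters of the table. The longer form CAAGGCCA was at -201 in Nr0b2 (2.4% of promoters), and CAAGGTCA, which can overlap both TCAAGG and the half-site, was in 0 of 6 (1.56%). The nuclear receptor half-site AGGTCA was at -232 and -210 in Akr1d1 and at -214 in Nr1h4, each on the opposite strand (16.3% of promoters). The Nr1h4 window, chr10:89506609-89506908 on the minus strand, lies inside the gene span given below, so its -214 counts from an internal start. CAAAGTCCA, a form bound by the hepatocyte factor HNF4A, was at -67 in Cyp8b1 (0.475%). The usual FXR site, searched as AGGTCA followed by any 1 base and by the same half-site reversed and complemented, was in 0 of the 6 windows (0.00913%). A match is a match of letters and was not tied to binding.

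Values were tested with limma on log2(FPKM + 1) with a term for perfusion, with Benjamini-Hochberg adjustment over all 11101 genes. Log2 changes on that scale understate the change of low genes. Errors of log2 changes are standard errors and those of FPKM are SDs. Sequencing depth is unknown, the summed FPKM ran from 466883 to 916006 per library, and between 15901 and 27676 genes were above 0. OE APAP 1 and OE saline 2 stood apart from every other library on the second principal component (12.7% of the variance), with scores of 39.0 and 38.9, the next highest being 15.5. Nampt mRNA was not lower in Het than in WT livers. It averaged 13.9 FPKM in Het APAP, 27.2 in OE APAP and 13.2 in WT APAP livers, and 24.5 in Het saline, 24.8 in OE saline and 17.1 in WT saline livers. Perfusion followed the sequencing lane, and the WT saline livers shared no lane with another of the main groups, so the WT response and lane cannot be told apart. Hepatocyte markers (8 listed) summed to 7674 to 13789 FPKM in APAP and 12670 to 17491 FPKM in saline livers, with Alb listed at 0 in all 17 libraries. In bulk liver, fewer cells of a type and less RNA per cell cannot be told apart.

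After APAP, 9 of the 10 genes were lower when the 3 genotypes were averaged, in 8 APAP and 7 saline livers. The decreases were largest for Cyp7a1, Cyp8b1 and Akr1d1, at 8.47-fold, 5.33-fold and 3.34-fold on the tested scale, and smallest for Hsd3b7. The SHP gene Nr0b2 was the exception, with a change near 0. Of all tested genes 13.3% were lower and 9.79% higher in this comparison. That is 1087 higher and 1474 lower genes, and with quantile normalization 1150 were higher and 1162 lower. The median change of the 10 genes was -1.08, against -0.02 over all tested genes.

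Cyp7a1 (ENSMUSG00000028240, chr4:6265612-6275633, minus strand of GRCm38), which hydroxylates cholesterol in the rate-limiting step of the classical route, stood at 1.67, 0.477 and 0.578 FPKM in Het APAP livers, against 45.8 and 64.2 FPKM in Het saline livers. It stood at 58.7 and 7.27 FPKM in OE APAP livers, against 34.8 and 129 FPKM in OE saline livers. In WT livers it had 13.8, 5.82 and 9.21 FPKM after APAP, against 43.2, 38.7 and 28.2 FPKM after saline. All 3 Het APAP livers lay below every other liver of the study, and OE APAP 1 lay above 5 of the 7 saline livers, so only Het and WT livers separated by treatment. The averaged change was -3.08 ± 0.48 (adjusted p = 0.0024), and 0.0180% of tested genes had a lower one. It was -5.33 ± 0.81 in Het (adjusted p = 0.00256), -1.62 ± 0.81 in OE (95% interval -3.42 to 0.18, adjusted p = 1) and -2.30 ± 0.75 in WT (-3.97 to -0.63, adjusted p = 0.1).

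Cyp8b1 (ENSMUSG00000050445, chr9:121914356-121916305, minus strand), whose promoter is printed above, makes the precursor of cholic acid and so sets the balance between cholic acid and the other bile acids. It had 10.4, 4.78 and 12.8 FPKM in Het APAP livers, against 94.3 and 111 FPKM in Het saline livers. OE APAP livers had 107 and 49.9 FPKM, against 119.995 and 225 FPKM in OE saline livers. WT APAP livers had 33.6, 38.0 and 16.6 FPKM, against 124, 108 and 142 FPKM in WT saline livers. APAP and saline livers did not overlap within any of the 3 genotypes, although OE APAP 1 lay above the lowest Het saline liver. Cyp8b1 fell, with log2 changes of -2.41 ± 0.28 on average (adjusted p = 0.000492), -3.69 ± 0.48 in Het (adjusted p = 0.00116) and -2.39 ± 0.44 in WT (adjusted p = 0.0139). In OE the change was -1.16 ± 0.47 (-2.19 to -0.12, adjusted p = 0.954).

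Akr1d1 (ENSMUSG00000038641, chr6:37530173-37568815, plus strand) reduces the double bond of the sterol ring that both routes share. It stood at 15.4, 6.23 and 8.68 FPKM in Het APAP livers, against 78.5 and 83.1 FPKM in Het saline livers. OE APAP livers had 94.4 and 40.4 FPKM, against 88.6 and 86.4 FPKM in OE saline livers. WT APAP livers had 32.5, 37.0 and 17.9 FPKM, against 90.6, 96.0 and 101 FPKM in WT saline livers. The Het and WT groups separated fully by treatment, while OE APAP 1 lay above both OE saline livers. Akr1d1 fell, with log2 changes of -1.74 ± 0.26 on average (adjusted p = 0.00129), -2.97 ± 0.44 in Het (adjusted p = 0.00166) and -1.75 ± 0.40 in WT (adjusted p = 0.0296), with -0.49 ± 0.44 in OE (-1.45 to 0.46, adjusted p = 1).

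Hsd3b7 (ENSMUSG00000042289, chr7:127800604-127803802, plus strand) oxidises the sterol ring in both routes. It ran from 66.6 to 181 FPKM (median 110.1) in the 8 APAP livers and from 134 to 285 FPKM (median 201) in the 7 saline livers. APAP livers lay below saline livers within Het and within WT, and overlapped in OE, where OE APAP 1 had 85.4 FPKM and OE APAP 2 had 181, against 201 and 134 FPKM in OE saline livers. The averaged change of -0.54 ± 0.17 passed narrowly (adjusted p = 0.0367), and none of the 3 genotypes passed alone. Without OE APAP 1 and OE saline 2 together the averaged change was -0.53 and did not pass. It missed the threshold with quantile normalization (-0.31, adjusted p = 0.144), with no filter on low values (adjusted p = 0.0962) and without Het APAP 3, Het saline 1, Het saline 2, OE APAP 2, OE saline 2, WT APAP 2, WT saline 1 or WT saline 3 (adjusted p between 0.0506 and 0.164), and was -0.81 with no perfusion term.

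**Figure D1:**
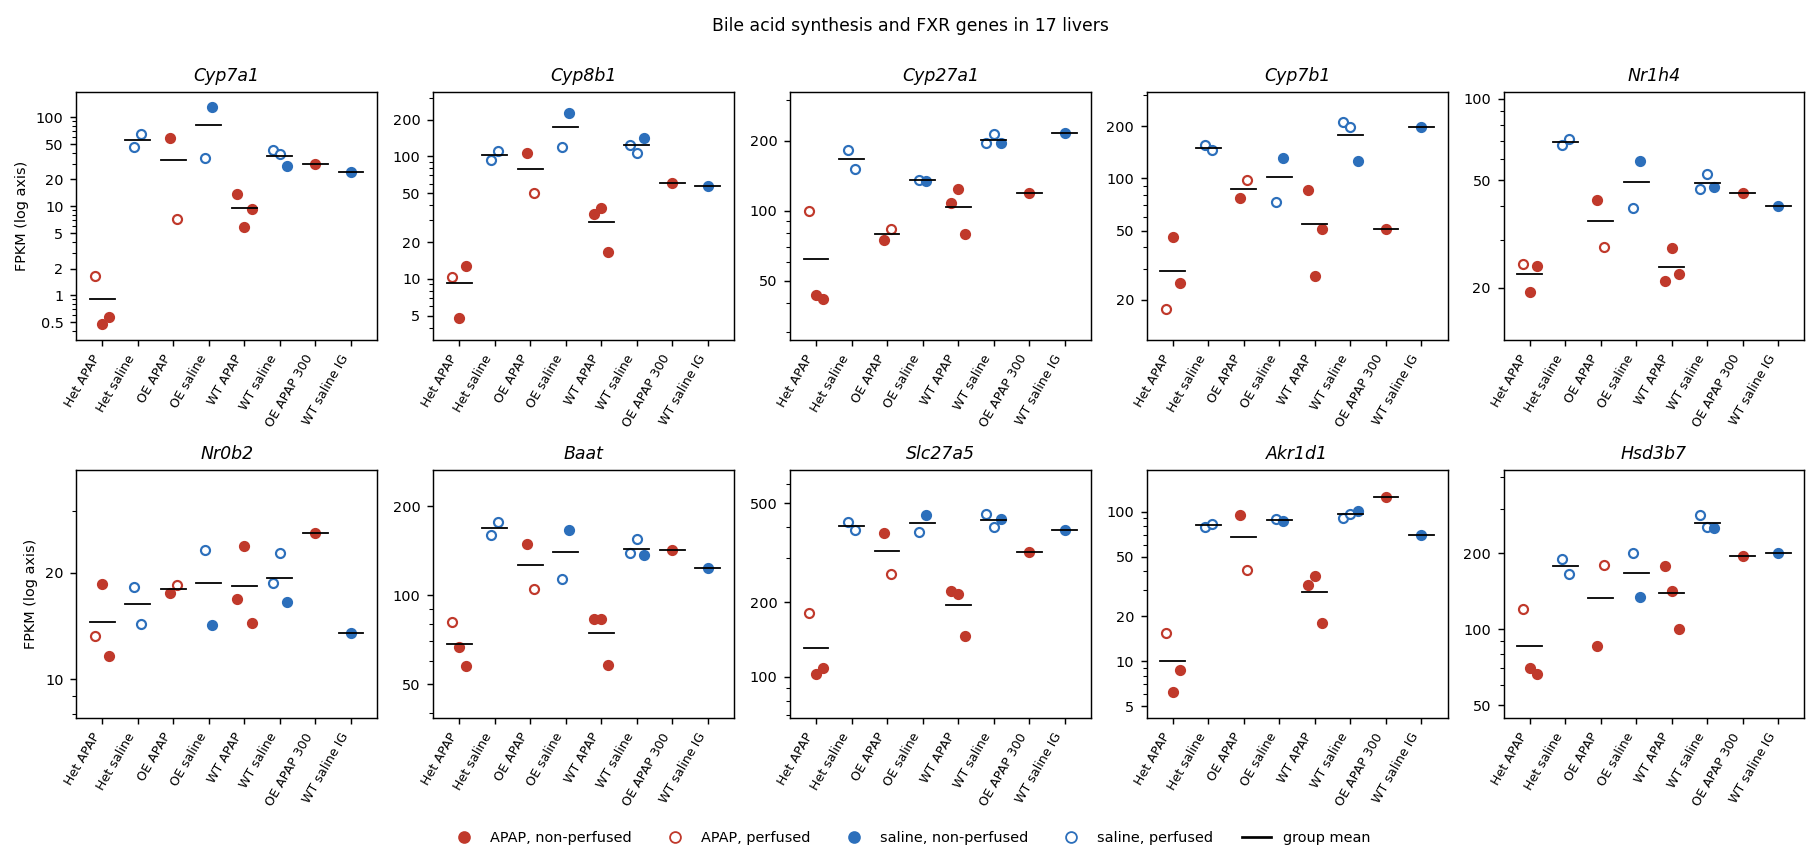
FPKM on a log axis (y) of each of the 10 genes in all 17 livers by group (x), with APAP in red, saline in blue, perfused livers as open circles and a line at the group mean. The Het APAP livers sit lowest for Cyp7a1, Cyp8b1 and Akr1d1, and the Nr0b2 points of APAP and saline livers overlap in every genotype.

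Of the alternative route, Cyp27a1 (ENSMUSG00000026170, chr1:74713574-74737892, plus strand), a mitochondrial enzyme that oxidises the cholesterol side chain in both routes, was lower in every APAP liver than in any saline liver. It ran from 41.8 to 124 FPKM (median 81.5) after APAP, against 135 to 214 FPKM (median 182) after saline. Its averaged change was -0.91 ± 0.18 (adjusted p = 0.00464). Het livers fell by 1.27 ± 0.31 (adjusted p = 0.0132), with -0.76 ± 0.31 in OE (adjusted p = 0.932) and -0.71 ± 0.28 in WT (adjusted p = 0.155). The Het change came to -0.72 when lane replaced perfusion (adjusted p = 0.118), -0.87 with quantile normalization (adjusted p = 0.0658), -1.14 without Het saline 1 (adjusted p = 0.094) and -1.40 without Het saline 2 (adjusted p = 0.0513).

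Cyp7b1 (ENSMUSG00000039519, chr3:18071950-18243338, minus strand), the oxysterol hydroxylase that follows Cyp27a1 and is male-biased in mouse liver, had 17.7, 45.8 and 24.9 FPKM in Het APAP livers, against 155 and 146 FPKM in Het saline livers. OE APAP livers had 77.2 and 97.4 FPKM, against 72.6 and 131 FPKM in OE saline livers. WT APAP livers had 85.1, 27.4 and 50.9 FPKM, against 210.1, 198 and 126 FPKM in WT saline livers. Treatments separated in Het and WT and overlapped in OE, where the lowest saline liver had less Cyp7b1 than either APAP liver. Cyp7b1 fell, with log2 changes of -1.54 ± 0.31 on average (adjusted p = 0.00585), -2.53 ± 0.53 in Het (adjusted p = 0.00726) and -1.91 ± 0.48 in WT (adjusted p = 0.0444), with -0.17 ± 0.52 in OE (-1.31 to 0.97, adjusted p = 1). The averaged value was -1.31 without OE saline 2, and also -1.31 without OE APAP 1 and OE saline 2 together. The Het value was -2.49 without Het saline 1. None of these values passed. The WT call passed narrowly: it held without Het APAP 2 and without WT APAP 1, and was lost without any other single library (adjusted p between 0.0558 and 0.108), with no filter (0.126), with quantile normalization (0.103) and without OE APAP 1 and OE saline 2 together (0.103).

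Both conjugation genes were lower. Slc27a5 (ENSMUSG00000030382, chr7:12988346-12998192, minus strand), which activates bile acids with coenzyme A, was the most abundant of the 10 per length and separated fully by treatment. It ran from 102 to 382 FPKM (median 198) in APAP livers and from 383 to 454 FPKM (median 422) in saline livers, so the highest APAP liver, OE APAP 1 at 381.7 FPKM, lay just under the lowest saline liver at 382.5. Slc27a5 fell, with log2 changes of -1.06 ± 0.19 on average (adjusted p = 0.00225), -1.65 ± 0.31 in Het (adjusted p = 0.00396) and -1.14 ± 0.28 in WT (adjusted p = 0.0373), with -0.40 ± 0.31 in OE (-1.06 to 0.27, adjusted p = 1). The WT call held without WT APAP 1 and without each Het APAP liver, and was lost without any other single library (adjusted p between 0.058 and 0.159), with no filter (0.105), with quantile normalization (0.0916) and without OE APAP 1 and OE saline 2 together (0.0914).

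Baat (ENSMUSG00000039653, chr4:49489422-49506557, minus strand), which joins the activated bile acid to taurine or glycine, ran from 57.6 to 149 FPKM (median 81.9) in APAP livers and from 113 to 177 FPKM (median 154) in saline livers. OE APAP 1 had the highest APAP value, above OE saline 1, and the Het and WT groups separated by treatment. Baat fell, with log2 changes of -0.84 ± 0.16 on average (adjusted p = 0.00329), -1.36 ± 0.26 in Het (adjusted p = 0.00456) and -1.01 ± 0.24 in WT (adjusted p = 0.0311), with -0.14 ± 0.26 in OE (-0.71 to 0.43, adjusted p = 1). With quantile normalization the averaged value was -0.54 (adjusted p = 0.0271) and the WT value -0.67 (adjusted p = 0.13).

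The receptor gene Nr1h4 (ENSMUSG00000047638, chr10:89454234-89533585, minus strand) was lower after APAP, at 24.4, 19.3 and 24.1 FPKM in Het APAP livers, against 67.5 and 70.9 FPKM in Het saline livers. It had 42.2 and 28.4 FPKM in OE APAP livers, against 39.5 and 58.9 FPKM in OE saline livers, and 21.2, 28.2 and 22.5 FPKM in WT APAP livers, against 46.3, 52.7 and 47.2 FPKM in WT saline livers. Het and WT livers separated by treatment with narrow spread, and the OE livers overlapped. Nr1h4 fell, with log2 changes of -1.09 ± 0.13 on average (adjusted p = 0.00046), -1.70 ± 0.23 in Het (adjusted p = 0.00104) and -1.12 ± 0.21 in WT (adjusted p = 0.013), with -0.47 ± 0.22 in OE (-0.95 to 0.02, adjusted p = 1).

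Nr0b2 (ENSMUSG00000037583, chr4:133553376-133556536, plus strand), the SHP gene whose promoter with its TCAAGG pair is printed above, is induced by FXR and represses Cyp7a1 and Cyp8b1. It had 13.3, 18.7 and 11.7 FPKM in Het APAP livers, against 18.3 and 14.4 FPKM in Het saline livers. OE APAP livers had 17.6 and 18.5 FPKM, against 23.3 and 14.2 FPKM in OE saline livers. WT APAP livers had 16.9, 23.8 and 14.5 FPKM, against 18.8, 22.8 and 16.6 FPKM in WT saline livers. The treatments overlapped in all 3 genotypes, and the whole range was 11.7 to 23.8 FPKM in APAP and 14.2 to 23.3 FPKM in saline livers. The averaged change was -0.00096 ± 0.16 (adjusted p = 0.997), with a 95% interval of -0.36 to 0.36. It was -0.03 in Het, -0.01 in OE and 0.05 in WT, none of which passed (adjusted p = 0.945, 1 and 0.938).

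The ratio of Cyp7a1 to Nr0b2 FPKM describes both ends of the feedback in each liver and was not tested. It was 0.0256 to 0.125 in Het APAP livers, against 2.51 to 4.47 in Het saline livers. It was 0.393 to 3.34 in OE APAP, against 1.49 to 9.08 in OE saline livers, and 0.245 to 0.818 in WT APAP, against 1.70 to 2.30 in WT saline livers. The ratio of Cyp7a1 to Cyp7b1, which sets the classical against the alternative route, was 0.0104 to 0.0942 in Het APAP livers, against 0.295 to 0.441 in Het saline livers. It was 0.0746 to 0.76 in OE APAP, against 0.48 to 0.982 in OE saline livers, and 0.162 to 0.212 in WT APAP, against 0.196 to 0.224 in WT saline livers. Cyp7a1 was thus lower relative to Cyp7b1 in every Het APAP liver than in any Het saline liver, while the WT groups overlapped.

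By genotype, 8 of the 10 genes were lower after APAP in Het, where 13.1% of all tested genes were lower, and the exceptions were Hsd3b7 (-0.68 ± 0.28, adjusted p = 0.105) and Nr0b2. In OE 0 of the 10 passed by limma, as did 0 of all genes (0% lower), with 2 of the 10, Cyp8b1 and Cyp27a1, at an unadjusted p under 0.05, as were 533 genes. In WT 6 were lower, where 3.55% of genes were lower, and Cyp7a1, Cyp27a1, Hsd3b7 (-0.55 ± 0.26, adjusted p = 0.235) and Nr0b2 did not pass. The Het count ran from 6 to 9 over the settings tried. The WT count was 0 with no filter on low values, 2 with quantile normalization and 3 without OE APAP 1 and OE saline 2 together. It was 1 without WT saline 3, 2 without WT APAP 3, WT saline 1 or WT saline 2, and 3 without OE APAP 1, OE APAP 2, Het saline 1 or Het saline 2. Of the 6 WT calls, those of Baat, Akr1d1, Cyp8b1 and Nr1h4 were lost in 8, 4, 1 and 0 of the 15 fits that left out 1 library. Cyp8b1 was lost without WT saline 3 (adjusted p = 0.0673), and Akr1d1 without WT APAP 3, WT saline 1, WT saline 2 or WT saline 3 (adjusted p between 0.0656 and 0.144). Baat was lost without those 4 and without Het saline 1, Het saline 2, OE APAP 1 or OE APAP 2 (adjusted p between 0.0518 and 0.0959).

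Counted without a model, every APAP liver lay below every saline liver for 9 of 10 genes in Het and 9 of 10 in WT, all but Nr0b2. That held for 33.2% of all tested genes in Het and 21.7% in WT. In OE it held for Cyp8b1, Cyp27a1 and Slc27a5 (10.6% of all genes). Over the 3 genotypes together it held for Cyp27a1 and Slc27a5, with 2.41% of all genes.

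**Figure D2:**
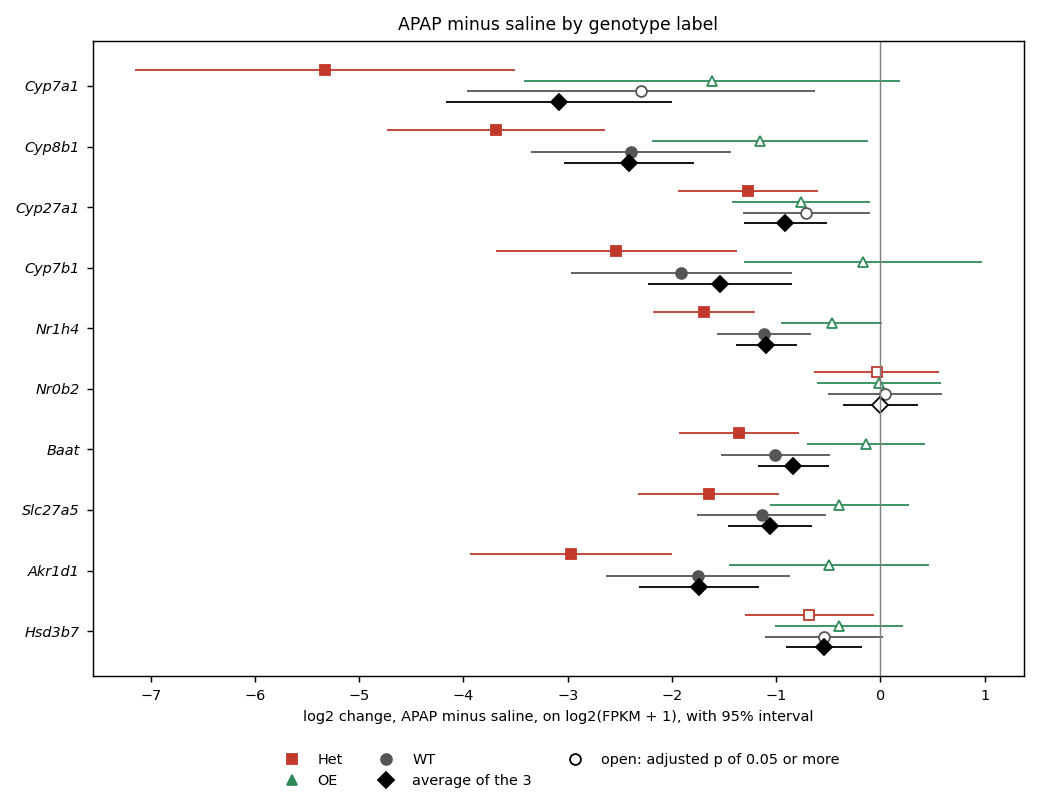
Log2 change after APAP on log2(FPKM + 1) with its 95% interval (x) for each gene (y) in Het, OE and WT and averaged; open symbols did not pass an adjusted p of 0.05. Het values lie furthest left (-5.33 for Cyp7a1), no OE value passed, and Nr0b2 sits near 0.

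Within perfusion classes and lanes the direction was kept for most genes. In perfused livers (2 APAP, 5 saline) the median of the 10 differences of mean log2(FPKM + 1) was -0.96, with 10 of 10 below 0 (50.5% of all tested genes). In non-perfused livers (6 APAP, 2 saline) it was -1.24, with 9 of 10 below 0 (54.6% of all tested genes). Within lane L008 (2 APAP, 3 saline) it was -0.99, with 10 of 10 below 0 (51.0% of all tested genes). In lane L004, which also held the 300 mg/kg liver, OE APAP 1 minus OE saline 2 had a median of -0.56. There 8 of 10 were below 0 (51.7% of all tested genes). Cyp7a1 had -3.27 in perfused and -3.09 in non-perfused livers, -3.35 in L008 and -1.12 in L004. Nr0b2 had -0.28, 0.12, -0.21 and 0.29 in the same order, so its sign was not stable. The perfusion classes and lane L008 mix the genotypes unequally, and no Het saline liver was non-perfused. Within a genotype, Cyp7a1 had -1.53 in non-perfused WT livers (3 APAP, 1 saline) and -4.37 in perfused Het livers (1 APAP, 2 saline). In perfused OE livers (1 APAP, 1 saline) it had -2.11. Without OE APAP 1 and OE saline 2, 7 of the 10 genes were lower on average, as were 948 of all tested genes in place of 1474.

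**Figure D3:**
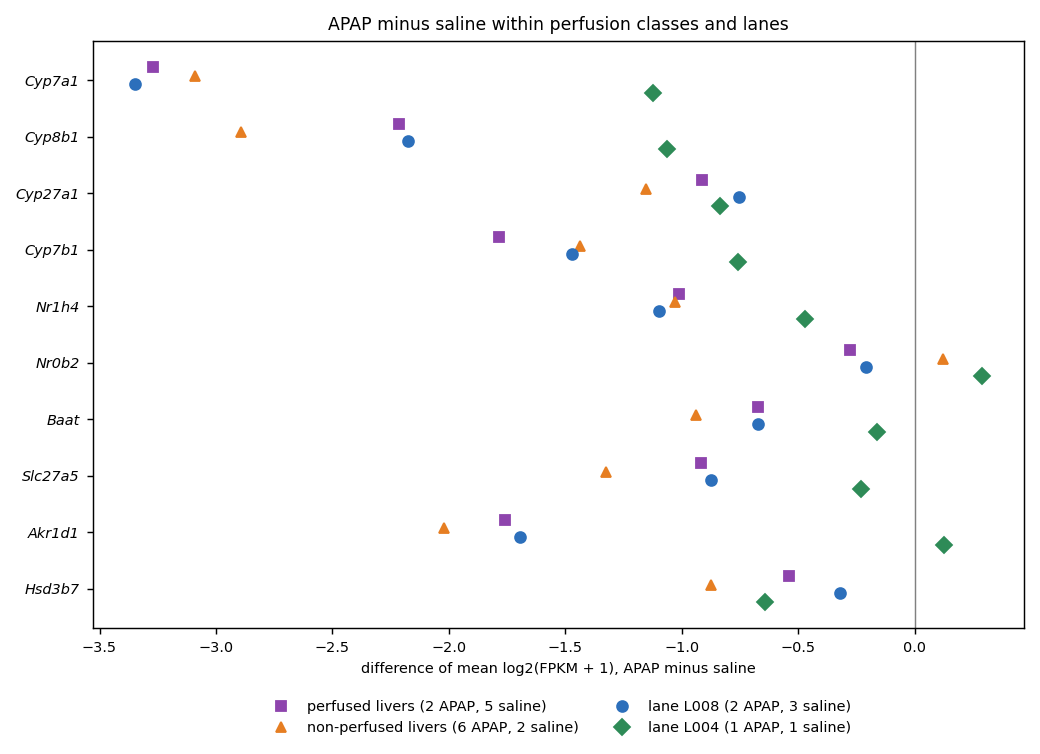
Difference of mean log2(FPKM + 1), APAP minus saline (x), of each gene (y) within perfused livers, non-perfused livers, lane L008 and lane L004. Cyp7a1 lies near -3 in all but L004 (-1.12), and Nr0b2 lies on both sides of 0. The perfusion classes and L008 mix the genotypes unequally.

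Markers of other cells and zones moved with the treatment. Pericentral hepatocyte markers (10 listed, none at 0 in every library) summed to 169 to 1443 FPKM in APAP livers and 1293 to 5063 FPKM in saline livers, and 7 of the 9 tested were lower, among them Glul at -3.39 ± 0.25 (adjusted p = 5.41e-05). Periportal markers (10 listed) summed to 1874 to 5511 FPKM in APAP and 2939 to 5827 FPKM in saline livers, with 4 of 10 lower. Acute phase genes (10 listed) summed to 4543 to 30497 FPKM in APAP and 3704 to 7311 FPKM in saline livers, and all 10 were higher. Monocyte markers (9 listed) summed to 56.9 to 356 FPKM, against 42.4 to 118 FPKM, and neutrophil markers (7 listed) to 5.76 to 462 FPKM, against 1.94 to 9.48 FPKM, with Ly6g at 0 in all saline livers. Of the 9 monocyte markers 7 were higher, and of 6 Kupffer cell markers 0 passed. The part of these shifts in the decreases was not tested.

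Among the APAP livers, 6 of the 10 genes were higher in OE than in Het. Of all 11101 tested genes 968 were higher and 544 lower, which is 13.6% in either direction. With quantile normalization 652 were higher and 610 lower. Cyp7a1 averaged 33.0 ± 36.4 FPKM in OE APAP livers (n = 2) and 0.907 ± 0.659 FPKM in Het APAP livers (n = 3), a log2 difference of 3.70 ± 0.74 (adjusted p = 0.0144). Cyp8b1 averaged 78.5 ± 40.5 FPKM in OE and 9.32 ± 4.10 FPKM in Het, and Akr1d1 67.4 ± 38.1 FPKM in OE and 10.1 ± 4.73 FPKM in Het. The differences were 3.01 ± 0.43 for Cyp8b1 (adjusted p = 0.00489) and 2.59 ± 0.40 for Akr1d1 (adjusted p = 0.00505). Cyp7b1 (1.66 ± 0.48, adjusted p = 0.0424), Slc27a5 (1.31 ± 0.28, adjusted p = 0.0141) and Baat (0.89 ± 0.24, adjusted p = 0.032) were higher too. By limma, Cyp7b1 and Baat missed the threshold with quantile normalization (adjusted p = 0.0853 and 0.158) and with no filter (0.103 and 0.0775). Cyp7b1 also missed it without Het APAP 1, Het APAP 3, either Het saline liver, WT APAP 3, WT saline 1 or WT saline 2 (0.0508 to 0.13). Without OE APAP 2, which leaves 1 OE APAP liver, the Cyp7b1 difference was 1.37 and its call was lost as well. Baat missed it without Het APAP 2, Het APAP 3 or WT saline 1 (0.0503 to 0.0974). Nr1h4 had 0.63 ± 0.21 (0.19 to 1.08, adjusted p = 0.0591), and Cyp27a1 (0.41), Hsd3b7 (0.48) and Nr0b2 (0.28, -0.26 to 0.83) did not pass.

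Without OE APAP 1 the OE APAP group is 1 liver, which is assumed to vary like the other groups. None of the 10 then passed by limma, although the differences stayed above 0, at 2.19 for Cyp7a1 (adjusted p = 0.284), 2.55 for Cyp8b1 (adjusted p = 0.175), 1.77 for Akr1d1 (adjusted p = 0.179) and 2.00 for Cyp7b1 (adjusted p = 0.271), and 5 genes in all passed in place of 1512. With lane in place of perfusion 0 of 10 passed too, with Cyp7a1 at 1.88 and Cyp27a1 at -0.29. Within lane L008, 1 OE APAP and 1 Het APAP liver gave a median difference of 0.55 with 9 of 10 above 0, where 46.7% of all tested genes were below 0. In non-perfused livers (1 OE, 2 Het) the median was 1.21 with 10 of 10 above 0, where 45.6% of all tested genes were below 0. Monocyte markers summed to 56.9 and 137 FPKM in the OE APAP livers and to 230.1 to 356 FPKM in Het APAP livers, with 7 of 9 lower. Periportal markers summed to 4729 and 5511 FPKM in OE and 1874 to 2476 FPKM in Het, with 6 of 10 higher, and pericentral markers to 820 and 1443 FPKM in OE and 169 to 632 FPKM in Het, with 4 of 9 higher. General hepatocyte markers summed to 12557 and 13789 FPKM in OE and 7674 to 9751 FPKM in Het, with 2 of 7 higher. Acute phase genes summed to 4543 FPKM in OE APAP 1 and 27673 FPKM in OE APAP 2. In Het APAP livers they summed to 15994 to 30497 FPKM and in saline livers to 3704 to 7311 FPKM, with 1 of 10 lower in OE than in Het. The part of these markers was not tested.

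Het livers after APAP lay below WT livers in the fitted value for all 10 genes, and 0 of 10 passed, with 0.054% of all genes called. By limma 6 of the 10 had an unadjusted p under 0.05, as did 2119 of all genes. Cyp7a1 averaged 0.907 ± 0.659 FPKM in Het APAP and 9.62 ± 4.01 FPKM in WT APAP livers (n = 3 each), without overlap, a difference of -2.25 ± 0.68 (-3.77 to -0.73, adjusted p = 0.122). Akr1d1 averaged 10.1 ± 4.73 FPKM in Het and 29.1 ± 9.97 FPKM in WT (-1.46 ± 0.37, adjusted p = 0.0781), and Cyp8b1 9.32 ± 4.10 FPKM in Het and 29.4 ± 11.3 FPKM in WT (-1.43 ± 0.40, adjusted p = 0.0936). Nr1h4 was near level at 22.6 ± 2.86 FPKM in Het and 23.9 ± 3.72 FPKM in WT (-0.02 ± 0.19, -0.43 to 0.39). With lane in place of perfusion, which compares 2 Het and 3 WT livers of lane L005, 6 of 10 were lower, Cyp7a1 with -2.73 (adjusted p = 0.00656), and 750 of all genes were called in place of 6. Without Het APAP 1 it was 5 of 10 with 558 of all genes called, without WT APAP 3 it was 4 with 845, and without WT saline 3 it was 1 with 256. These counts rest on the choice of term or library, since the main setting called 0.

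OE livers after APAP did not pass against WT for any of the 10 (0.00901% of all genes called, 1910 genes at an unadjusted p under 0.05). The differences ran from -0.56 for Cyp27a1 to 1.57 for Cyp8b1 (0.57 to 2.58, adjusted p = 0.153), and Cyp7a1 had 1.45 ± 0.78 (-0.29 to 3.20, adjusted p = 0.368). No lane held both OE APAP and WT APAP livers, and with lane in place of perfusion Cyp7a1 was at -0.85. Without OE APAP 1 it was -0.27 and without OE APAP 2 it was 2.56, so the sign rested on 1 library.

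**Figure D4:**
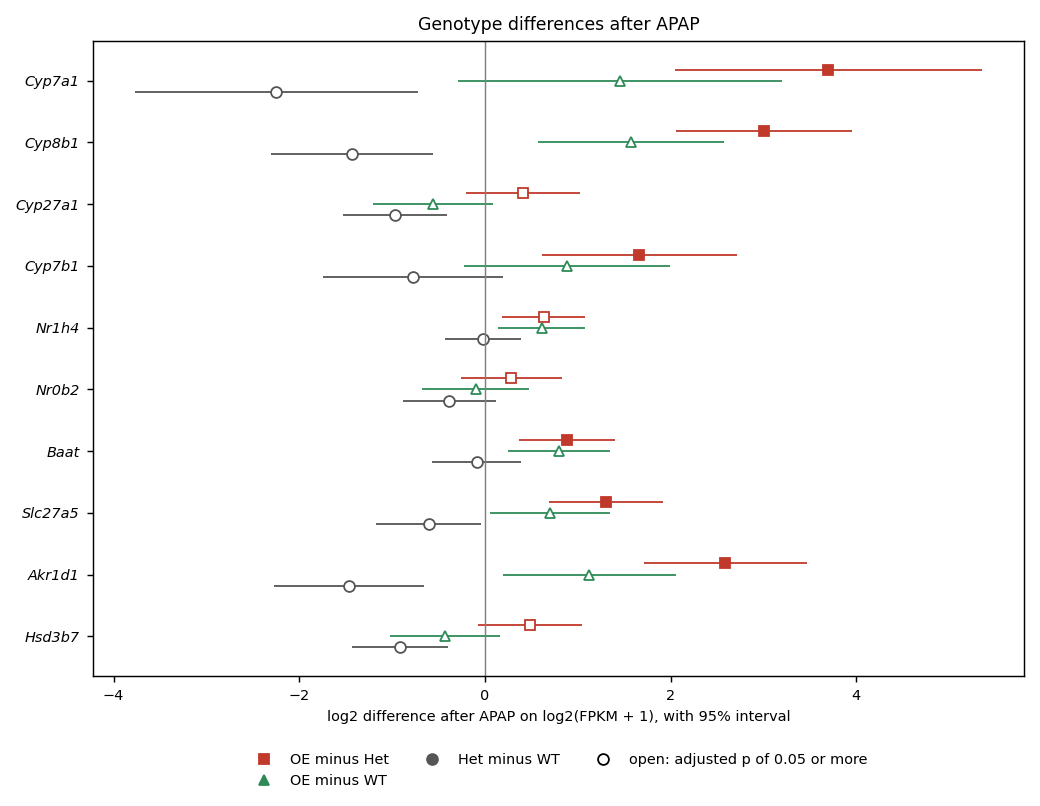
Log2 difference between genotypes after APAP on log2(FPKM + 1) with its 95% interval (x) for each gene (y), as OE minus Het, OE minus WT and Het minus WT; open symbols did not pass an adjusted p of 0.05. Filled symbols are the 6 OE minus Het differences, and none passed without OE APAP 1, where Cyp7a1 was at 2.19 and Cyp8b1 at 2.55.

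Under saline the genotypes differed in 0 of the 10 genes by limma, for Het minus WT (0.036% of all genes called, 1314 at an unadjusted p under 0.05) and for OE minus WT (0.036%, 661). Hsd3b7 averaged 177 ± 16.6 FPKM in Het saline and 264 ± 17.7 FPKM in WT saline livers (-0.78 ± 0.26, adjusted p = 0.299), and Nr1h4 averaged 69.2 ± 2.39 FPKM in Het and 48.7 ± 3.44 FPKM in WT (0.56 ± 0.21, adjusted p = 0.35). Cyp7a1 had 0.78 ± 0.76 for Het (-0.91 to 2.47) and 0.77 ± 0.74 for OE (-0.88 to 2.43). Intervals this wide do not show that the genotypes were alike.

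The genotypes' responses were compared directly by the difference of the APAP minus saline changes. OE minus Het called 0 of 10 (0.018% of all genes called, 2035 at an unadjusted p under 0.05), with 7 of 10 at an unadjusted p under 0.05: Cyp7a1 had 3.71 ± 1.15 (1.15 to 6.27, adjusted p = 0.144), Akr1d1 2.48 ± 0.62 (adjusted p = 0.102) and Nr1h4 1.23 ± 0.32 (adjusted p = 0.102). Without Het APAP 1, 5 passed among 458 of all genes, and without OE APAP 2, 2 passed among 258, in place of 2 of all genes. Het minus WT called 0 of 10 (0% of all genes, 916 at an unadjusted p under 0.05), with Cyp7a1 at -3.03 ± 0.99 (-5.24 to -0.82, adjusted p = 0.603). OE minus WT called 0 of 10 (0% of all genes, 664 at an unadjusted p under 0.05), with Cyp7b1 at 1.74 ± 0.71 (0.18 to 3.30, adjusted p = 0.805). Hence no difference of response between genotypes passed for any of the 10. OE minus Het and Het minus WT share the Het livers.

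Other bile acid genes were read from lists that overlap in part (Abcb11, Slc51a and Slc51b in 2, Mafg in 2) and were chosen with earlier results of these data known. Of 15 other bile acid enzymes 13 were tested and 8 were lower on average, with a list median of -0.80. For this and the lists that follow, 13.3% of all tested genes were lower and 9.79% higher in the averaged response. Akr1c14, a hydroxysteroid dehydrogenase, had -1.51 ± 0.12 (adjusted p = 5.51e-05). The peroxisomal genes Abcd3, the bile acid intermediate importer, and Hsd17b4 and Amacr, which act on the side chain, had -1.48, -1.26 and -0.80 (adjusted p = 0.000448, 0.00103 and 0.00127). Ch25h, cholesterol 25-hydroxylase, which macrophages also make, is named after its values were seen as the 1 higher gene of the list. It was higher at 1.68 ± 0.40 (adjusted p = 0.0132), with 0.281 to 9.87 FPKM in APAP and 0 to 0.174 FPKM in saline livers. Its saline values lay far below the filter of a mean of 1 FPKM. Ch25h was thus tested only through its high APAP values, and its call is no separate support for a rise. Cyp46a1 and Star were too low to test.

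Of 13 transporters 12 were tested, 6 were lower and 1 was higher, with a median of -0.63. The sinusoidal uptake carriers Slco1b2 (31.9 to 164 FPKM in APAP, 171 to 509 FPKM in saline livers) and Slc10a1 (22.7 to 168 FPKM in APAP, 150.2 to 355 FPKM in saline livers) fell, with log2 changes of -2.11 ± 0.26 and -1.89 ± 0.27 (adjusted p = 0.000514 and 0.000903). The basolateral efflux pump Abcc4 rose by 1.12 ± 0.12 (adjusted p = 0.00021), with 0.868 to 4.37 FPKM in APAP and 0.428 to 0.646 FPKM in saline livers. Every saline value of Abcc4 lay under the filter of a mean of 1 FPKM. It was thus tested only through its higher APAP values, and its call is no separate support for a rise. Abcc3, another efflux pump, fell by 0.81 ± 0.19 (adjusted p = 0.00896). The canalicular export pump Abcb11, an FXR target, had -0.64 ± 0.24 (adjusted p = 0.079).

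Of 12 FXR target genes 10 were tested, 3 were lower and 0 higher, with a median of -0.21. Pltp, a phospholipid transfer protein, had -0.77 ± 0.11 (adjusted p = 0.00103), Abcb4, the canalicular phospholipid floppase, -1.28 ± 0.21 (adjusted p = 0.00184) and Mafg, a repressor that FXR induces, -0.48 ± 0.11 (adjusted p = 0.0097). Fetub did not pass (-0.42, adjusted p = 0.0789). Fgf15, made in the intestine, had at most 0.0469 FPKM in APAP and 0 in saline livers, and Slc51a at most 0.0786 FPKM in APAP and 0.0577 FPKM in saline livers.

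All 16 regulators were tested, 5 were lower and 1 was higher, with a median of -0.30. Ppara, the fatty acid receptor, had -0.74 ± 0.13 (adjusted p = 0.0026), Nr1i3, the xenobiotic receptor CAR, -1.90 ± 0.40 (adjusted p = 0.00825) and Nr1h3, the oxysterol receptor LXR, -0.38 ± 0.09 (adjusted p = 0.0142). The genes that follow, and Abcb11, Fgf15 and Slc51a above, were picked for their roles after their values were seen. Nr5a2 (LRH-1), Hnf4a and the obligate partner Rxra had 0.02 ± 0.13, -0.11 ± 0.14 and -0.29 ± 0.12 (adjusted p = 0.929, 0.609 and 0.103). Fgfr4, the hepatic receptor of Fgf15, rose by 0.42 ± 0.14 (adjusted p = 0.0464), and its partner Klb had -0.33 ± 0.15 (adjusted p = 0.136).

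By genotype, the Het response called 9 of 13 other enzymes, 6 of 12 transporters, 5 of 10 FXR targets and 6 of 16 regulators lower. The OE response called 0 in each of these lists, and the WT response called 3, 2, 1 and 0 lower in the same order. Het also called 1 other enzyme and 1 transporter higher, and WT 1 transporter and 1 FXR target. Of all tested genes 13.1% were lower in Het, 0% in OE and 3.55% in WT. The genes called higher were 1003 in Het, 0 in OE and 217 in WT. Among APAP livers, 7 other enzymes, 6 transporters, 4 FXR targets and 6 regulators were higher in OE than in Het, and 0 were lower. Of all 11101 tested genes 968 were higher and 544 lower in OE than in Het. Without OE APAP 1 only 5 of all tested genes passed in that comparison, so at most 5 of these calls can stand without it.

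**Figure D5:**
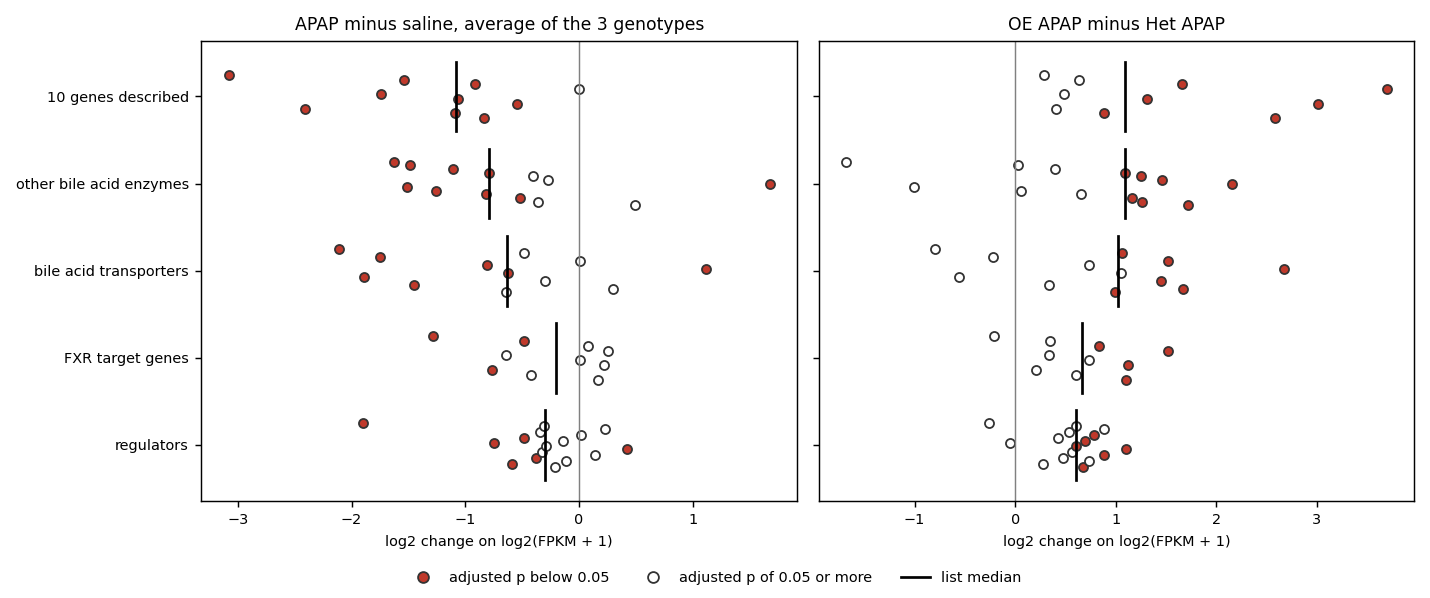
Log2 change on log2(FPKM + 1) (x) of each tested gene by list (y), for APAP minus saline averaged over genotypes (left) and OE minus Het after APAP (right), with filled points past an adjusted p of 0.05 and a line at each list's median. The averaged medians are -1.08 for the 10 genes, -0.80 for other enzymes, -0.63 for transporters, -0.21 for FXR targets and -0.30 for regulators.

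Profiles over the 17 livers were compared by the mean absolute difference of log2(FPKM + 1), each gene centred on its own mean, as a description. Cyp7a1 was nearest to Cyp8b1 among the 10 genes (0.62) and farthest from Nr0b2 (1.51), and outside them nearest to Akr1c19 (0.60), Hsd3b3 (0.65) and Etnppl (0.67). Cyp8b1 was nearest to Akr1d1 within the 10 (0.37) and to Afmid (0.34), Rdh16 (0.41) and Bhmt (0.42) outside. Nr1h4 was nearest to Baat within the 10 (0.16) and to Slc25a20 (0.14), Chpt1 (0.14) and Hadha (0.15) outside, and Nr0b2 to Slc35d2 (0.13) and Dynlt3 (0.14). Small distances are easier to reach for genes that vary little, as Nr0b2 did.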

How the data were processed

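Liver RNA was made into stranded total RNA libraries read from both ends, per the labels' protocols. The submitters' processing notes name bcl2fastq 2.17.1.14, TopHat2 2.0.9, Cufflinks 2.2.1, Cuffdiff and GRCm38.p5. Each deposited value, 1 for a gene in a library, was read as FPKM from those tools and the values, since no header names the unit. Of 46073 listed genes, 96 with failed estimates were left out: 89 at 0 throughout a genotype and treatment with at least 10 FPKM elsewhere, and 7 neighbours within 100 kb, a rule chosen after seeing the data. limma 3.58.1 (statmod 1.5.0, R 4.3.3) fitted log2(FPKM + 1) with a mean for each of 8 label groups, a perfusion term and a trended robust prior, for genes averaging 1 FPKM or more, and the false discovery rate was 0.05. The fit was run on simulated data for the averaged response only. Those data held no perfusion, lane or genotype effect, so the run does not check the other comparisons. Descriptions used Python 3.11.15, pandas 2.3.3 and numpy 2.4.6. Depth is unknown, so no counting interval is given. No pair of libraries was a duplicate (smallest median absolute log2 difference 0.135).

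The 10 genes and all lists were chosen with earlier results of these data known. Of each other list, up to 4 tested genes with the smallest p are named, with the 3 genes nearest in profile to Cyp7a1, Cyp8b1, Nr1h4 and Nr0b2. A gene that this rule selects is not reported here. Alternatives were a pseudocount of 0.1, no filter, no perfusion term, lane for perfusion, quantile normalization, and leaving out each library, or OE APAP 1 with OE saline 2.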

Additional observations from a re-analysis of the deposited data

Results flagged for a closer look

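The single OE liver taken after APAP at 300 mg/kg enters no comparison, and 2 of the 10 genes stood above every saline liver of the main groups there, as did 20.8% of all 11101 tested genes. The 10 genes were thus near the share of all genes, and the values are given as a description only. That liver also had the highest summed FPKM of the 17 libraries, at 916006. Nr0b2 was at 26.0 FPKM in that liver, against at most 23.3 FPKM in the saline livers. Akr1d1 was at 126 FPKM in that liver, against at most 101 FPKM in the saline livers. The cause was not tested, and with 1 library there is no replicate. No group had the 4 samples that a test for outlying samples needs.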

How the results depend on the processing

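Among the values of the 10 genes, under the settings that kept every library or left out the pair, 586 kept direction and call, 36 lost the call, 10 gained it and 28 changed sign. With 1 library left out in turn, 1653 kept both, 66 lost the call, 22 gained it and 59 changed sign. The cause was not tested. Every sign change concerned a value that had not passed. Lane in place of perfusion could not be fitted for the averaged and WT responses, the saline comparisons with WT or the differences of response with WT, since WT saline shared no lane. No paired analysis was possible because replicate numbers follow the order of deposit. Depth is unknown and limits what low values can show.

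Of the 10 genes, the count lower in WT (6) was 0 with no filter, 2 with quantile normalization, 3 without OE APAP 1 and OE saline 2 together, and 1 to 7 with 1 library left out. The count lower in Het than WT after APAP (0) was 6 with lane, 1 without that pair, and 0 to 5 with 1 library left out. The count higher in OE than Het after APAP (6) was 0 with lane, 0 without the pair, and 0 to 7 with 1 library left out. For OE minus Het difference of response it was 0 to 5 with 1 library left out.

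Over all genes, the averaged response called 2561, 1634 without the pair, and 873 to 2689 with 1 library left out. The WT response called 611, 170 with no filter, 1237 with no perfusion term, 403 without the pair, and 138 to 964 with 1 left out. With quantile normalization its split was 235 higher and 246 lower, in place of 217 and 394. The Het response called 2455, 838 with lane, and 884 to 2624 with 1 left out. The OE response called 0, 1 with no filter, 2 without the pair, and 0 to 12 with 1 left out. Het minus WT after APAP called 6, with 750 for lane, 70 for a pseudocount of 0.1, 60 with no filter, 1 with no perfusion term, 88 with quantile normalization, 37 without the pair and 1 to 845 with 1 left out. OE minus WT after APAP called 1, with 4 for lane, 3 with no filter, 0 with no perfusion term, 0 with quantile normalization and 0 to 99 with 1 left out. OE minus Het after APAP called 1512, with 3 for lane, 912 with no filter, 1 without the pair and 5 to 1899 with 1 left out. With quantile normalization its split was 652 higher and 610 lower, in place of 968 and 544. Het minus WT under saline called 4, with 2 for a pseudocount of 0.1, 1 with no perfusion term, 1 with quantile normalization, 9 without the pair and 0 to 11 with 1 left out. OE minus WT under saline called 4, with 2 for quantile normalization, 0 without the pair and 0 to 7 with 1 left out. For the differences of response, Het minus WT called 0, 4 with no filter, and 0 to 2 with 1 left out. OE minus WT called 0, 1 with no filter, 1 without the pair, and 0 to 1 with 1 left out. OE minus Het called 2, with 12 for lane, 4 with no filter, 4 with no perfusion term and 0 to 458 with 1 left out.

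Values whose sign changed were these. With quantile normalization Nr0b2 was 0.096 in the averaged response, and Nr0b2 was 0.13 in the response in Het, and Nr0b2 was 0.00295 in the response in OE. There Baat was 0.11, Nr1h4 was 0.063 in Het minus WT after APAP, and Baat was 0.0019 in OE minus WT under saline, and Hsd3b7 was 0.019 in Het minus WT (difference of response). There Hsd3b7 was -0.044 in OE minus WT (difference of response), and Hsd3b7 was -0.063, Nr0b2 was -0.13 in OE minus Het (difference of response). With no perfusion term Nr0b2 was -0.091 in the response in WT, and Nr0b2 was 0.0037 in OE minus WT after APAP, and Cyp27a1 was 0.21, Nr0b2 was 0.077 in OE minus WT (difference of response). Without OE APAP 1 and OE saline 2 Nr0b2 was -0.038 in the response in WT, and Cyp7b1 was 0.42 in the response in OE, and Cyp7a1 was -0.95 in OE minus WT after APAP. There Cyp7a1 was -0.27, Cyp8b1 was -0.055, Nr0b2 was 0.24 in OE minus WT under saline, and Cyp7a1 was -0.68 in OE minus WT (difference of response), and Nr0b2 was -0.20 in OE minus Het (difference of response). With lane in place of perfusion Akr1d1 was -0.14, Cyp7a1 was -0.85, Nr0b2 was 0.33, Slc27a5 was -0.24 in OE minus WT after APAP, and Cyp27a1 was -0.29 in OE minus Het after APAP, and Cyp27a1 was -0.039 in OE minus Het (difference of response).

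With 1 library left out in turn, these ranges crossed 0. The averaged response held Nr0b2 between -0.16 and 0.12. The response in WT held Nr0b2 between -0.15 and 0.19. The response in Het held Nr0b2 between -0.20 and 0.22. The response in OE held Akr1d1 between -1.25 and 0.27, Baat between -0.43 and 0.16, Cyp7b1 between -0.60 and 0.26, Nr0b2 between -0.31 and 0.28. Het minus WT after APAP held Baat between -0.26 and 0.073, Nr1h4 between -0.13 and 0.14. OE minus WT after APAP held Cyp7a1 between -0.27 and 2.56, Nr0b2 between -0.25 and 0.092. Het minus WT under saline held Cyp7b1 between -0.44 and 0.052. OE minus WT under saline held Baat between -0.35 and 0.24, Nr0b2 between -0.36 and 0.24, Nr1h4 between -0.27 and 0.23, Slc27a5 between -0.21 and 0.14. Het minus WT (difference of response) held Hsd3b7 between -0.38 and 0.052, Nr0b2 between -0.31 and 0.11. OE minus WT (difference of response) held Cyp27a1 between -0.38 and 0.16, Cyp7a1 between -1.14 and 1.69, Hsd3b7 between -0.23 and 0.53, Nr0b2 between -0.27 and 0.32. OE minus Het (difference of response) held Nr0b2 between -0.23 and 0.40.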

Other observations

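In the single OE liver after APAP at 300 mg/kg, Cyp7a1 was at 30.2 FPKM, Cyp8b1 at 60.8, Cyp27a1 at 119 and Cyp7b1 at 51.3 FPKM. Nr1h4 was at 45.0 FPKM, Baat at 142, Slc27a5 at 319 and Hsd3b7 at 196 FPKM. In the single WT liver after saline labelled IG, Cyp7a1 was at 24.1 FPKM, Cyp8b1 at 57.4, Cyp27a1 at 217 and Cyp7b1 at 197 FPKM. There Nr1h4 was at 40.0 FPKM, Nr0b2 at 13.5, Baat at 123, Slc27a5 at 389, Akr1d1 at 69.2 and Hsd3b7 at 201 FPKM.

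Slc10a2, the apical bile acid transporter of ileum and bile duct, was listed as an enterocyte marker and is named here after its values were seen. It ran from 12.2 to 39.0 FPKM in APAP livers and from 9.50 to 24.0 FPKM in saline livers, with a log2 change of 0.80 ± 0.22 averaged over genotypes (limma adjusted p = 0.021). The other tested marker of that list, Fabp2, a fatty acid binding protein, was lower (-1.09 ± 0.16, limma adjusted p = 0.00104), and the 5 markers summed to 44.9 to 145 FPKM (median 60.9) in APAP livers and 107 to 160.01 FPKM (median 136) in saline livers. Of the cholangiocyte markers 3 were tested and 1, Sox9, was higher, at 0.80 ± 0.15 (limma adjusted p = 0.00285). The part of these markers in the Slc10a2 value was not tested.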
